A study of Homo sapiens with 28 samples.

Results

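This report follows 9 genes of homologous recombination and the Fanconi pathway, BRCA1, BRCA2, BARD1, BRIP1, PALB2, RAD54L, FANCA, FANCD2 and FANCI, through the RNA-Seq of 2 prostate cancer cell lines. They were taken by symbol, and all 9 were found among the 19662 gene symbols of each table. The question was whether hypoxia lowers these genes and whether ONECUT2, a homeodomain transcription factor of the CUT family, changes them. PC3, a line with neuroendocrine features, was transfected with a control siRNA (siCtrl) or with siRNA against ONECUT2 (siOC2). LNCaP, an adenocarcinoma line of luminal type, received an empty vector (EV) or a vector for Flag-tagged ONECUT2 (OC2). Each was kept in normoxia or in hypoxia at 0.2% oxygen, with 2 libraries for each of the 4 groups per line. In siOC2, library 1 came from siRNA1 and library 2 from siRNA2, so the spread within siOC2 includes the difference between the siRNAs. The LNCaP table holds no value for ONECUT2 in the OC2 libraries, so overexpression could not be checked there. Nothing in the labels says that the libraries of a group came from separate cultures, so the p-values measure only the spread between these libraries.

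Homologous recombination copies an intact sister chromatid to mend a broken one, and cells use it mainly in S and G2 phase. BRCA1, with its partner BARD1, promotes resection of the break and brings in PALB2, which carries BRCA2, and BRCA2 acts on the resected single-stranded DNA. The Fanconi pathway unhooks crosslinks between the DNA strands: a core complex that includes FANCA attaches ubiquitin to the pair FANCD2 and FANCI, and the repair then passes to the recombination proteins. Many of these genes are transcribed with the cell cycle, and lowered BRCA1 expression is a known response of cultured cancer cells to lack of oxygen.

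Values are RPKM, in which the reads of a gene are divided by its length and by the reads of the library. Fold changes are differences of log2(RPKM + 0.1) with the standard error (SE) of the limma fit, which spans the 4 groups of a line. Genes counted as called when they changed over 2-fold and had an unadjusted p under 0.05, the limits of the study, and a Benjamini-Hochberg adjusted p under 0.05 over all genes tested was the stricter rule. All 9 genes passed the limit on low values, at least 1 RPKM in 2 libraries, with 12214 genes tested in PC3 and 12283 in LNCaP. All tests are 2-sided. Relative depth ran from 0.347 to 1.145 in PC3 and from 0.545 to 1.00 in LNCaP. The shallow PC3 libraries were siOC2 hypoxia 1 at 0.347, siCtrl hypoxia 2 at 0.383 and siCtrl normoxia 1 at 0.419. ONECUT2 itself went in PC3 cells from 1.77 and 1.16 RPKM in siCtrl to 0.276 and 0.204 in siOC2 in normoxia, and from 0.648 and 0.5499 to 0.125 and 0.214 in hypoxia. Its siCtrl over siOC2 log2 fold change was 2.18 ± 0.65 in normoxia (limma adjusted p = 0.332) and 1.39 ± 0.65 in hypoxia (adjusted p = 0.439). ONECUT2 passed the limit on low values only through the siCtrl normoxia libraries, and its siOC2 values were near the added 0.1. Hypoxia was seen in the HIF targets: 18 of 20 were called higher in siCtrl PC3 cells and 17 of 18 in EV LNCaP cells, against 2.23% and 5.60% of all genes. In siOC2 PC3 cells 17 of 20 were called higher, against 1.11% of all genes. By adjusted p 6 of 20 were higher in PC3 siCtrl (0.270% of all genes) and 0 of 20 in siOC2 (0.00819%). In LNCaP EV 17 of 18 were (18.2%). The luminal marker KLK3 ran from 1842 to 3997 RPKM in LNCaP and was at 0 in all 8 PC3 libraries.

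The positions of the genes and of their neighbours bear on how the values were counted. On GRCh37, BRCA1 lies on chromosome 17 from 41196312 to 41322262 (minus strand), BRCA2 on chromosome 13 from 32889223 to 32974405 (plus) and BRIP1 on chromosome 17 from 59756500 to 59940920 (minus). RAD54L overlaps LRRC41 by 17285 bases, FANCA overlaps ZNF276 by 14243, FANCI overlaps POLG by 12064, FANCD2 overlaps FANCD2OS by 20616 and BRCA2 overlaps ZAR1L by 278, each on the opposite strand. Noncoding genes without values here overlap as well. For BRCA1 these include NBR2, by 28121 bases on the opposite strand. Another overlaps BRCA1 by 21878 bases on the same strand, where strand does not tell reads apart. PALB2 overlaps one by 18267 bases on the opposite strand. The libraries were stranded, but whether the strand was used in the counting is not given in the sources used here.

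RefSeq promoter windows of 300 bases (250 before the start and 50 after it, GRCh38.p14) were matched for 8 of the 9 genes. BRCA2 and BRIP1 are shown because they moved with 1 siRNA each, and FANCD2 because it holds an E2F word. Capitals mark every word searched, on either strand.

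BRCA2, chr13:32315258-32315557, plus strand: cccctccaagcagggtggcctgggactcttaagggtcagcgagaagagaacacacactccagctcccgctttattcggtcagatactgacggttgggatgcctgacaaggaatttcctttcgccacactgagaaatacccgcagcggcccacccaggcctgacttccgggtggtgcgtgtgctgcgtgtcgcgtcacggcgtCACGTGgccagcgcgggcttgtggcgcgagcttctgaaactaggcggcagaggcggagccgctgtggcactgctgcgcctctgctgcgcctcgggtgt
BRIP1, chr17:61863479-61863778, minus strand: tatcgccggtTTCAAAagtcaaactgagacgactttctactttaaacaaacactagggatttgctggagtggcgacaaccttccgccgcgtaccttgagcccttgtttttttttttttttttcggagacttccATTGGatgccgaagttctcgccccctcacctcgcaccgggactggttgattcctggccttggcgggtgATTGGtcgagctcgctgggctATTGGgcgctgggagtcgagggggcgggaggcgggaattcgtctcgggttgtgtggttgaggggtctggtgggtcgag
FANCD2, chr3:10026187-10026486, plus strand: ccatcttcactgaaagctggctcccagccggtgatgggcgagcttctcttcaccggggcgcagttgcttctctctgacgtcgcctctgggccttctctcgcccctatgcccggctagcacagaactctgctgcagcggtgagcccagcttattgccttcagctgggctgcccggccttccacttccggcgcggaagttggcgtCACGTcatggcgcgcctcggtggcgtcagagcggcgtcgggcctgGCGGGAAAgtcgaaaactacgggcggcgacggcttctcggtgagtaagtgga

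BRCA2 holds the hypoxia response core ACGTG on both strands, overlapping at 47 and 48 bases before the start, and FANCD2 holds it once. That core was in 21.6% of 27305 promoters. BRIP1 holds CCAAT, the NF-Y word, 3 times, and CCAAT is also in the windows of PALB2, RAD54L and FANCA, against 35.7% of all promoters. One of the 4 E2F words searched (TTTCCCGC, TTTCGCGC, TTTGCCGC, TTTGGCGC) was in FANCA and FANCD2, 2 of 8 genes, against 3.33% of all promoters. TTTGAA, the CHR word bound by the DREAM and MuvB complexes, was in BRIP1 only, against 15.4%. The ONECUT cores ATCGAT and ATCAAT were in none of the 8 windows, against 7.12% of all. BRCA1 has several annotated starts and only the RefSeq window at 1 of them, chr17:43170278-43170577, was searched. The counts of 8 cover BRCA1 by that window only and say nothing of its other starts. These matches describe letters and were not tested as sites.

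BRCA1 was the gene of the 9 that was lower in hypoxia in both lines and in both arms of each. In PC3 siCtrl cells it stood at 9.02 and 10.05 RPKM in normoxia and at 7.13 and 8.995 in hypoxia. In siOC2 cells it stood at 7.69 and 6.80 in normoxia and at 3.31 and 4.34 in hypoxia. The normoxia and hypoxia libraries did not overlap in either arm, but the gap in siCtrl was small, from 9.02 to 8.995. Of all genes tested, 32.9% lay lower in hypoxia without overlap in siCtrl and 20.9% in siOC2. The change was a log2 fold change of -0.25 ± 0.29 (SE) in siCtrl, with a limma adjusted p of 0.93, and of -0.91 ± 0.29 in siOC2, with an unadjusted p of 0.0131 and an adjusted p of 0.72. Neither passed. In LNCaP EV cells BRCA1 stood at 25.9 and 26.1 RPKM in normoxia and at 19.1 and 19.3 in hypoxia. In OC2 cells it stood at 23.5 and 20.7 in normoxia and at 15.99 and 14.9 in hypoxia. Here the groups were well apart and tight: BRCA1 fell by 0.43 ± 0.11 on the log2 scale in EV (limma adjusted p = 0.0158) and by 0.51 ± 0.11 in OC2 (adjusted p = 0.0102), under the 2-fold limit in both. With either EV hypoxia library left out the adjusted p in EV was 0.0875 or 0.1. Without OC2 normoxia 1 or OC2 hypoxia 2 that in OC2 was 0.0577 or 0.074.

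BARD1, the RING partner of BRCA1, fell with hypoxia in LNCaP EV cells. Its values there were 15.0 and 11.97 RPKM in normoxia and 7.53 and 8.86 in hypoxia, 0.70 ± 0.16 lower on the log2 scale (limma adjusted p = 0.0119). In OC2 cells the values overlapped, 9.64 and 11.2 in normoxia and 10.7 and 9.26 in hypoxia, with a log2 fold change of -0.06 ± 0.16. Without EV hypoxia 1, BARD1 no longer passed in EV (log2 fold change -0.59, adjusted p = 0.09), and with no limit on low values the adjusted p was 0.0518. In PC3 the siCtrl libraries were higher in hypoxia, 10.2 and 8.94 against 8.69 and 8.54, by 0.15 ± 0.40, which did not pass.

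BRCA2 and its bridge PALB2 were not tested against each other. In PC3, BRCA2 overlapped between the oxygen levels in both arms. Its log2 fold changes there, -0.10 ± 0.55 in siCtrl and -0.11 ± 0.55 in siOC2, did not pass. In LNCaP, BRCA2 was higher in hypoxia, at 8.66 and 9.27 RPKM in EV against 7.44 and 6.04 in normoxia, and at 6.36 and 7.90 in OC2 against 3.57 and 5.98. The log2 fold changes of 0.41 ± 0.24 and 0.61 ± 0.24 did not pass alone, but the mean over both arms did, at 0.51 ± 0.17 (limma adjusted p = 0.0369). That call was lost with no limit on low values (adjusted p = 0.131), and without EV normoxia 2, EV hypoxia 1, EV hypoxia 2, OC2 normoxia 1 or OC2 hypoxia 2 it was between 0.0713 and 0.118. PALB2 in PC3 stood at 8.39 and 10.3 RPKM in normoxia and 7.52 and 6.08 in hypoxia in siCtrl, and at 8.50 and 8.98 against 5.24 and 7.30 in siOC2. These groups did not overlap, as for 32.9% of all genes lower in siCtrl and 20.9% in siOC2. The log2 fold changes of -0.46 ± 0.30 and -0.49 ± 0.30 did not pass. In LNCaP, PALB2 overlapped between the oxygen levels in both arms, with values from 7.21 to 10.6 RPKM.

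RAD54L, a DNA translocase that acts in strand exchange, did not fall with hypoxia. It was at 4.61 and 4.18 RPKM in normoxia and 5.19 and 4.87 in hypoxia in PC3 siCtrl cells, with a log2 fold change of 0.19 ± 0.32. In LNCaP EV cells it was at 8.24 and 6.32 in normoxia and 8.58 and 9.47 in hypoxia, with 0.32 ± 0.21. BRIP1, a helicase that binds BRCA1 and is itself a Fanconi gene, changed with hypoxia by between -0.01 and 0.30 in the 4 comparisons, none of which passed. FANCA of the core complex changed by between -0.26 and 0.17, FANCD2 by between -0.02 and 0.37 and FANCI by between -0.14 and 0.23.

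**Figure D1:**
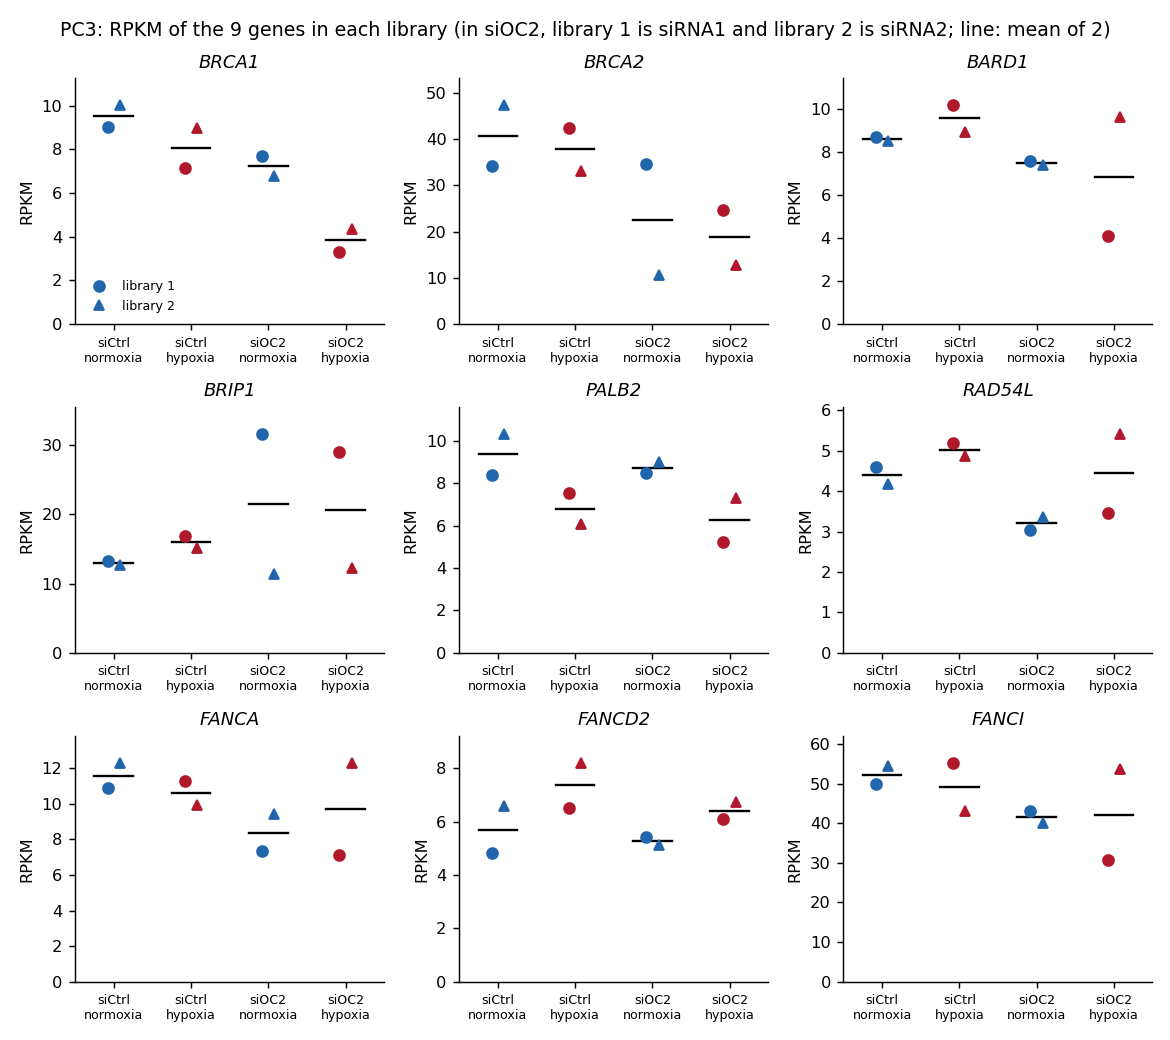
RPKM of the 9 genes in the 8 PC3 libraries, by siRNA and oxygen level (blue, normoxia; red, hypoxia; circle, library 1; triangle, library 2; black line, mean of 2; each vertical axis starts at 0). BRCA1 is lowest in the siOC2 hypoxia libraries, and BRCA2 and BRIP1 split by siRNA.

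Counted over the genes, hypoxia lowered few of the 9. At the fold limit, 0 of 9 were called lower in PC3 siCtrl cells, where 1.63% of all genes tested were, and 0 of 9 in siOC2 cells, where 2.35% were. None was called higher, against 2.23% and 1.11% of all genes. At an unadjusted p under 0.05 the count was 0 in siCtrl and 1, BRCA1, in siOC2, where 7.38% and 6.71% of all genes had such a p, so 1 of 9 is near the share of all genes. Over both PC3 arms 0 of 9 were called at the fold limit, against 1.60% of all genes higher and 2.05% lower, and 0 of 9 by adjusted p, against 0.581% and 0.0327%. BRCA1 there had -0.58 ± 0.21 (limma adjusted p = 0.276). In LNCaP 0 of 9 were called lower at the fold limit in EV, against 2.34% of all genes, and 0 in OC2, against 1.36%. None was called higher, against 5.60% in EV and 5.48% in OC2. With the adjusted p, 2 of 9, BRCA1 and BARD1, were lower in EV, against 14.1% of all genes tested, and 1 of 9, BRCA1, in OC2, against 8.49%. The LNCaP shares of the 9 genes that were lower by adjusted p, 2 of 9 and 1 of 9, are thus near those of all genes. By adjusted p 0 of 9 were higher in either arm, against 18.2% of all genes in EV and 18.4% in OC2. At an unadjusted p under 0.05 the count was 2 of 9 in each arm, against 44.4% and 40.6% of all genes. Over both LNCaP arms together BRCA1 and BARD1 were lower, where 17.9% of all genes were, and BRCA2 was higher, where 27.3% were. BARD1 over both arms, -0.38 ± 0.11 (limma adjusted p = 0.0239), did not pass with no limit on low values (adjusted p = 0.0732) or without EV normoxia 1, EV hypoxia 1, OC2 normoxia 2 or OC2 hypoxia 2 (adjusted p from 0.0559 to 0.0896). Without overlap, 2 of 9 lay lower with hypoxia in each PC3 arm, against 32.9% of all genes in siCtrl and 20.9% in siOC2. In LNCaP 3 of 9 lay lower in each arm, FANCA in both, against 32.4% in EV and 26.1% in OC2. Higher without overlap were 3 of 9 in siCtrl (22.1% of all genes) and 2 in siOC2 (7.34%). In LNCaP these were 4 of 9 in EV (37.1%) and 2 in OC2 (42.0%).

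The median log2 fold change of the 9 genes with hypoxia was -0.09 in PC3 siCtrl, -0.03 in siOC2, -0.02 in LNCaP EV and 0.02 in OC2. The medians of all genes tested were -0.07, -0.22, 0.02 and 0.09. With upper-quartile scaling the median of all genes in PC3 siOC2 moved from -0.22 to -0.09. The signs of BRCA2, BRIP1 and FANCI in PC3 siOC2 and of PALB2 in LNCaP OC2 turned with that scaling, from -0.11, -0.01, -0.03 and 0.02.

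**Figure D2:**
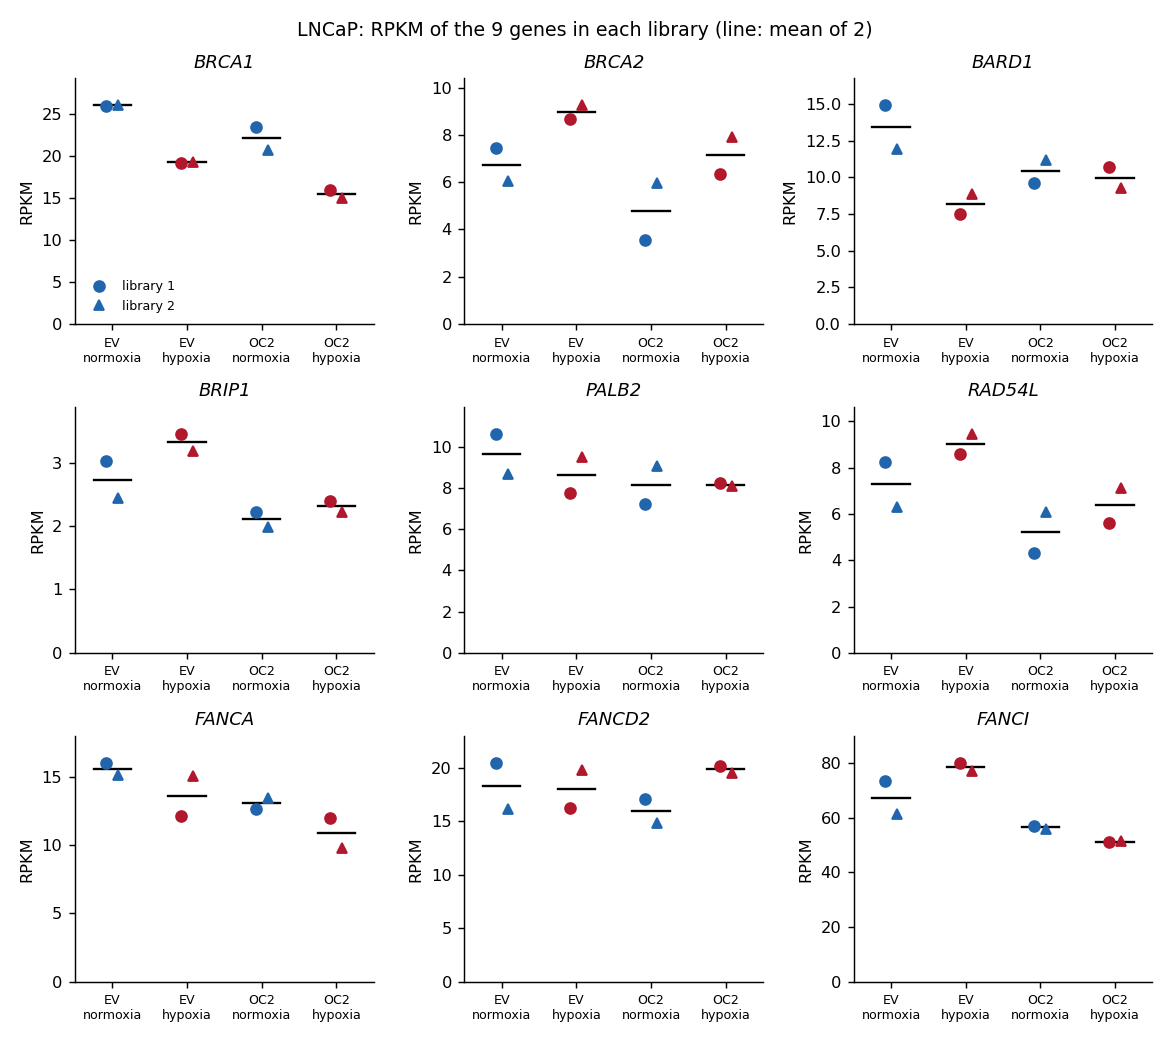
RPKM of the 9 genes in the 8 LNCaP libraries, by vector and oxygen level (blue, normoxia; red, hypoxia; circle, library 1; triangle, library 2; black line, mean of 2; each vertical axis starts at 0). BRCA1 steps down with hypoxia in both arms, and FANCI is at 76.9 to 80.2 RPKM in EV hypoxia against 50.9 to 51.4 in OC2 hypoxia.

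The ONECUT2 effect was taken as more over less ONECUT2, siCtrl over siOC2 in PC3 and OC2 over EV in LNCaP. BRCA1 was the only gene of the 9 called in PC3 at either oxygen level taken alone. In hypoxia it stood at 7.13 and 8.995 RPKM in siCtrl and at 3.31 and 4.34 in siOC2, so both siRNAs lay below both controls. The siCtrl mean was 8.06 ± 1.32 (SD, n = 2) and the siOC2 mean 3.82 ± 0.731 (SD, n = 2). BRCA1 was 1.06 ± 0.29 higher on the log2 scale in siCtrl, with an unadjusted p of 0.0062 and a limma adjusted p of 0.198. That is 1 of 9 genes called higher, against 3.95% of all genes tested, and 0 of 9 called lower, against 3.55%. The call was lost in several ways, at a log2 fold change of 0.91 with a pseudocount of 1 and of 0.997 with upper-quartile scaling. Without siOC2 hypoxia 1 the log2 fold change was 0.87, without siCtrl hypoxia 2 it was 0.89, and without all 3 of the shallowest it was 0.70. In normoxia BRCA1 was 9.02 and 10.05 in siCtrl and 7.69 and 6.80 in siOC2, a log2 fold change of 0.39 ± 0.29 (adjusted p = 0.75).

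In normoxia 0 of the 9 genes were called in PC3, against 1.59% of all genes called higher and 3.62% called lower, and 0 of 9 had an unadjusted p under 0.05, as 9.2% of all genes did. The siCtrl libraries lay above both siOC2 libraries for 5 of the 9, BRCA1, BARD1, RAD54L, FANCA and FANCI, where 15.0% of all genes did so. In hypoxia that held for 2, BRCA1 and BRCA2, against 19.6%. The adjusted p gave 0 of 9 in both, against 0.00819% of all genes higher in normoxia and 0.0491% higher and 0.0409% lower in hypoxia. Over both oxygen levels BRCA2 was called at the fold limit, at 1.07 ± 0.39 (limma adjusted p = 0.182), 1 of 9 against 3.04% of all genes higher, and 0 of 9 were called lower, against 3.90%. By adjusted p 0 of 9 passed, against 1.20% higher and 1.57% lower. The BRCA2 call was lost without siOC2 normoxia 2 (0.64), siOC2 hypoxia 2 (0.84), siCtrl normoxia 2 (0.95) or siCtrl hypoxia 1 (0.98), and with no limit on low values. RAD54L in normoxia was at 4.61 and 4.18 RPKM in siCtrl and at 3.04 and 3.36 in siOC2, a log2 fold change of 0.44 ± 0.32. FANCA was at 10.9 and 12.3 in siCtrl and at 7.34 and 9.40 in siOC2, with 0.47 ± 0.33. FANCI was at 49.99 and 54.4 in siCtrl and 43.0 and 40.1 in siOC2, with 0.33 ± 0.31. Each of these 3 gaps was larger than its SE and none passed.

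In LNCaP hypoxia the gene that passed the adjusted p was FANCI. FANCI, the partner of FANCD2 in the clamp that receives ubiquitin, was at 80.2 and 76.9 RPKM in EV hypoxia and at 50.9 and 51.4 in OC2 hypoxia. It fell by 0.62 ± 0.11 on the log2 scale (limma adjusted p = 0.0108), and in normoxia, at 73.5 and 61.3 in EV and 57.1 and 55.7 in OC2, by 0.25 ± 0.11 (adjusted p = 0.199). With any 1 of the 4 hypoxia libraries left out, the adjusted p in hypoxia was between 0.0561 and 0.0906. POLG, which overlaps FANCI on the other strand, was at 44.3 and 40.6 RPKM in EV hypoxia and at 29.9 and 32.3 in OC2 hypoxia, a log2 fold change of -0.45 ± 0.16 (adjusted p = 0.109), and its part in the FANCI values was not tested. FANCI was 1 of 9 genes lower by adjusted p in hypoxia, against 4.82% of all genes, and 0 of 9 were lower in normoxia, against 1.70%. At the fold limit 0 of 9 were called in either direction, against 0.480% of all genes lower and 2.81% higher in normoxia and 0.773% lower and 3.70% higher in hypoxia. At an unadjusted p under 0.05, 2 genes were lower in normoxia (RAD54L and FANCI) and 4 in hypoxia (BRCA1, BRIP1, RAD54L and FANCI), where 24.1% and 28.2% of all genes had such a p in either direction.

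The direction was shared more widely than the calls. Both OC2 libraries were below both EV libraries for 7 of the 9 genes in normoxia, where 31.5% of all genes were, and for 6 of the 9 in hypoxia, where 34.8% were. All 9 log2 fold changes were below 0 in normoxia, where 38.6% of all genes tested were above 0. In hypoxia BARD1 and FANCD2 were above 0, at 0.28 ± 0.16 and 0.15 ± 0.15, as were 48.2% of all genes. The median of the 9 genes was -0.25 in normoxia and -0.31 in hypoxia, against -0.08 and -0.01 for all genes tested. Over both oxygen levels BRCA1 (-0.28 ± 0.07, adjusted p = 0.0388), BRIP1 (-0.43 ± 0.12, adjusted p = 0.0481) and FANCI (-0.43 ± 0.08, adjusted p = 0.00773) were lower by limma, where 8.87% of all genes were. RAD54L, at 8.24 and 6.32 RPKM in EV normoxia and 4.33 and 6.08 in OC2 normoxia, had -0.49 ± 0.15 over both levels (adjusted p = 0.053). With upper-quartile scaling the adjusted p was 0.107 for BRCA1 and 0.0876 for BRIP1, with the replicate block it was 0.0565 and 0.0528, and with no limit on low values it was 0.0683 for BRIP1. With 1 library left out BRCA1 passed only without OC2 normoxia 1 and BRIP1 only without EV normoxia 2, with adjusted p otherwise from 0.0513 to 0.14 and from 0.0796 to 0.162, whereas FANCI passed each time.

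**Figure D3:**
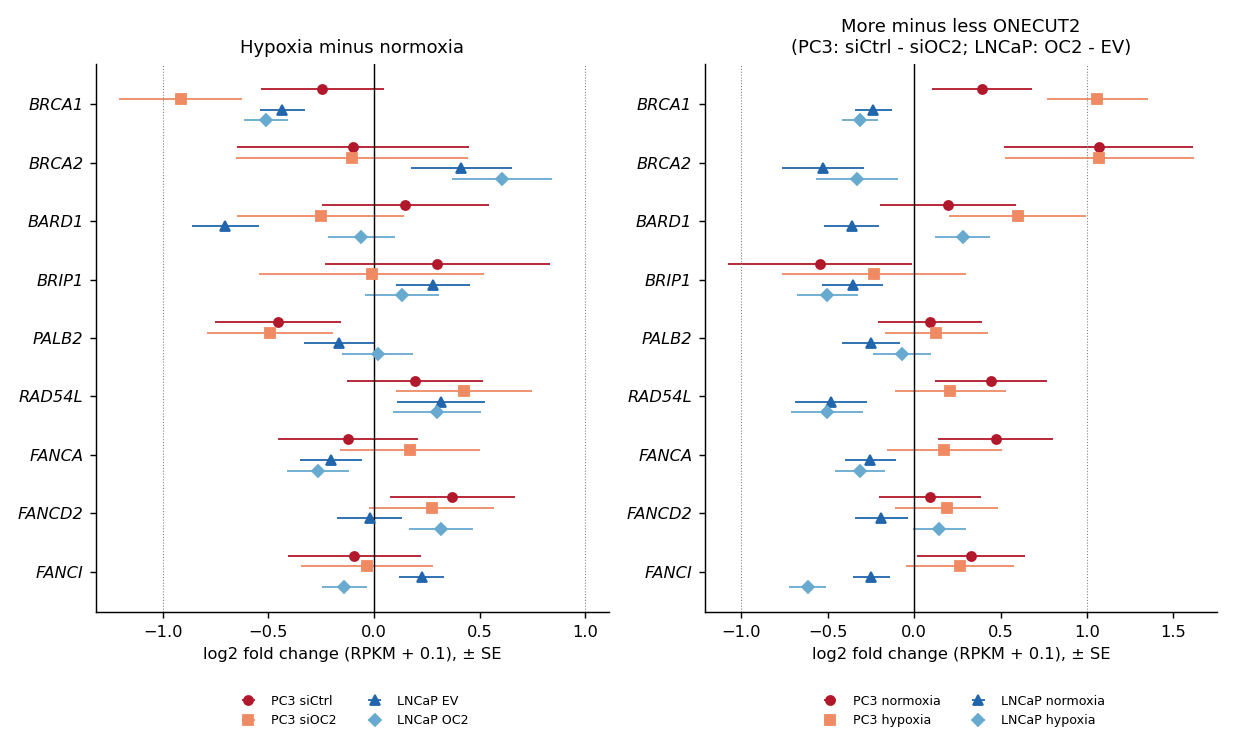
Log2 fold change of RPKM + 0.1 (horizontal axis, ± SE of the limma fit) for each gene, hypoxia over normoxia on the left and more over less ONECUT2 on the right, with dotted lines at 2-fold. BRCA1 is left of 0 in all 4 hypoxia comparisons. On the right the PC3 and LNCaP points of BRCA1, BRCA2, PALB2, RAD54L, FANCA and FANCI lie on opposite sides of 0.

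BRCA2 and BRIP1 differed between the siRNA1 and siRNA2 libraries in PC3, and a fit with 1 term for the siRNA over both oxygen levels gives the size. This fit was chosen after these genes were seen to differ between the siRNAs, so its p-values are no independent test of that difference. Each siRNA had 1 library per oxygen level, so the normoxia and hypoxia libraries serve as its replicates. BRCA2 was at 34.1 and 47.4 RPKM in siCtrl normoxia and at 42.5 and 33.1 in siCtrl hypoxia. With siRNA1 it was at 34.6 in normoxia and 24.6 in hypoxia, and with siRNA2 at 10.6 and 12.9. The siRNA2 values were thus below every other library. The siCtrl over siRNA2 log2 fold change was 1.73 ± 0.24 (limma adjusted p = 0.000134) and that over siRNA1 was 0.41 ± 0.24 (adjusted p = 0.233). BRIP1 moved with the other siRNA: it was at 31.7 RPKM in normoxia and 29.1 in hypoxia with siRNA1, at 11.3 and 12.2 with siRNA2, and between 12.7 and 16.8 in the 4 siCtrl libraries. It was higher with siRNA1, by a siCtrl over siRNA1 log2 fold change of -1.07 ± 0.21 (adjusted p = 0.00204), and had 0.29 ± 0.21 for siCtrl over siRNA2 (adjusted p = 0.346).

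The direct difference between siRNA1 and siRNA2 was 1.31 ± 0.27 for BRCA2 (adjusted p = 0.00305) and 1.36 ± 0.24 for BRIP1 (adjusted p = 0.00107). With no limit on low values the adjusted p for BRCA2 was 0.0995. These were 2 of 9 genes called higher with siRNA1 at the fold limit, against 4.31% of all genes, and 0 of 9 were called lower, against 15.4%. Both also passed the adjusted p, against 6.10% of all genes. At the fold limit BRIP1 was called lower in siCtrl than in siRNA1, against 4.75% of all genes. BRCA2 was called higher in siCtrl than in siRNA2, against 4.16% of all genes, and 0 of 9 were called lower, against 9.69%. ONECUT2 had siCtrl over siRNA1 at 1.83 and siCtrl over siRNA2 at 1.74. It reached 1 RPKM only in siCtrl normoxia and was near the added 0.1 in siOC2. These values therefore do not show how alike the lowering by the siRNAs was. BRCA1 had siCtrl over siRNA1 at 0.78 ± 0.24 (adjusted p = 0.03), which passed, and siCtrl over siRNA2 at 0.67 ± 0.24 (adjusted p = 0.0566), which did not. By adjusted p, 1 of 9 genes, BRCA1, was higher in siCtrl than in siRNA1 (13.3% of all genes) and 1, BRIP1, lower (8.42%), and 1, BRCA2, was higher in siCtrl than in siRNA2 (6.96%), with 0 lower (14.6%). Without siOC2 hypoxia 1, the BRCA1 value for siRNA1 was 0.50 (adjusted p = 0.298), and it also missed the limit without any 1 of the siCtrl libraries (adjusted p from 0.0572 to 0.118).

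**Figure D4:**
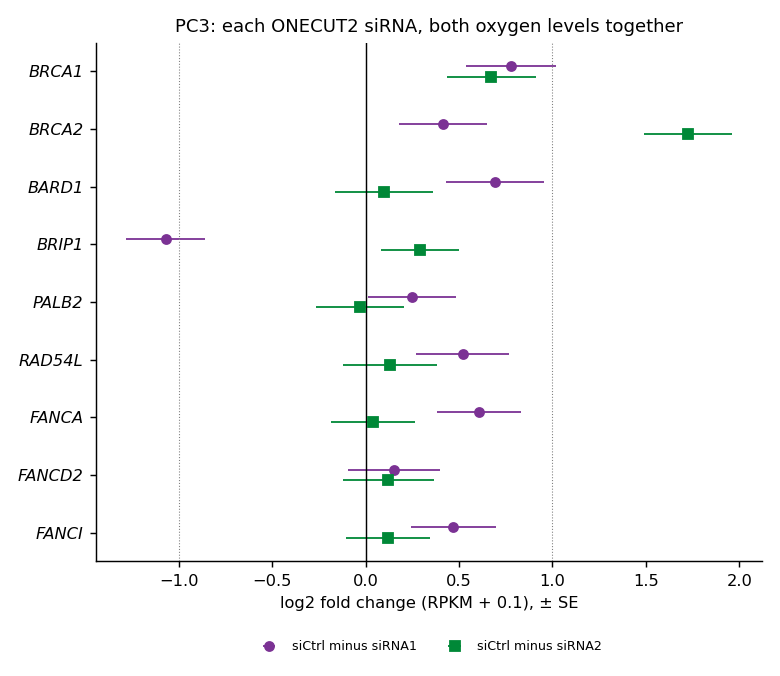
Log2 fold change of siCtrl over each ONECUT2 siRNA in PC3 (horizontal axis, ± SE of a limma fit with a siRNA term, both oxygen levels together), with dotted lines at 2-fold. BRCA1 lies at 0.78 and 0.67 for the 2 siRNAs, whereas BRCA2 passes 2-fold for siRNA2 only and BRIP1 is below 0 for siRNA1 only.

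Whether the ONECUT2 effect differed between the oxygen levels was tested by the interaction. In PC3, 0 of 9 genes were called, against 0.696% of all genes higher and 0.246% lower, and 0 of 9 had an unadjusted p under 0.05, as 1.03% of all genes did. BRCA1 had the largest PC3 value, 0.67 ± 0.41 (limma adjusted p = 1.00). In LNCaP, 0 of 9 were called, against 2.34% and 1.35% of all genes, and 2 of 9 had an unadjusted p under 0.05, near the 16.9% of all genes that did. BARD1 had 0.64 ± 0.22 (limma adjusted p = 0.218), where OC2 was below EV in normoxia, 9.64 and 11.2 against 15.0 and 11.97 RPKM, and above it in hypoxia, 10.7 and 9.26 against 7.53 and 8.86. FANCI had -0.37 ± 0.15 (limma adjusted p = 0.271).

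Other genes of the pathway give the setting for the 9. Of 32 further homologous recombination genes in LNCaP, 9 were lower and 2 higher with hypoxia in EV by adjusted p, and 6 and 1 in OC2. Of all genes tested, 14.1% were lower and 18.2% higher in EV, and 8.49% and 18.4% in OC2. RAD54B, a paralog of RAD54L, went the other way and was the only one called at the fold limit in EV, 1.37 ± 0.15 higher (limma adjusted p = 0.000486). Of 13 further Fanconi genes 2 were lower and 0 higher in EV. In OC2, FANCM, a translocase that anchors the core complex on DNA, was called at the fold limit, 1.04 ± 0.34 higher (adjusted p = 0.0561). At that limit 5.60% of all genes were called higher in EV and 5.48% in OC2. In PC3, 0 of 31 tested recombination genes and 0 of 13 Fanconi genes were called with hypoxia in either arm. In each list 0 had an unadjusted p under 0.05, against 7.38% of all genes in siCtrl and 6.71% in siOC2.

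For the ONECUT2 effect in PC3 hypoxia, 2 of 31 further recombination genes were called higher in siCtrl, EXO1, an exonuclease that resects ends, at 1.17 ± 0.47 (limma adjusted p = 0.37), and RPA3, a subunit of the single-strand binding protein RPA, at 1.02 ± 0.34 (adjusted p = 0.29). Of all genes 3.95% were called higher there. The medians were 0.34 for the 31 recombination genes, 0.45 for the 13 Fanconi genes and 0.21 for the 9, against 0.03 for all genes. Without siOC2 hypoxia 1 the median was -0.01 for the 9 and -0.23 for all genes. The medians of the recombination and Fanconi lists were not computed without that library. In LNCaP hypoxia 7 of the 32 recombination genes were lower and 1 higher with OC2 by adjusted p, and 1 of the 13 Fanconi genes was lower. Of all genes tested, 4.82% were lower and 6.72% higher. Of the repair lists outside the pathway, 10 end-joining genes had 0 calls by adjusted p in LNCaP hypoxia, 7 mismatch repair genes had 1 lower and 17 excision repair genes had 2 lower.

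Replication and mitosis genes are given beside the 9. In PC3 hypoxia all 18 mitosis genes had a log2 fold change above 0 for siCtrl over siOC2, with a median of 0.86 and 4 called (0 by adjusted p), among them CENPE (2.02), CENPF (1.64) and AURKB (1.18). Of 19 replication genes 2 were called (0 by adjusted p), MCM6 (1.496) and MCM5 (1.27). Of all genes tested, 52.4% were above 0 there and 3.95% were called higher (0.0491% by adjusted p). In LNCaP hypoxia all 18 mitosis and all 19 replication genes were below 0 for OC2 over EV, with medians of -0.49 and -0.46. By adjusted p 10 and 8 were lower, against 4.82% of all genes, and 48.2% of all genes were above 0. The summed RPKM of the mitosis genes was 1048 to 1260 in PC3 siCtrl hypoxia and 550.5 to 733.4 in siOC2 hypoxia, and 1068 to 1079 in LNCaP EV hypoxia and 759.7 to 782.0 in OC2 hypoxia. The basal or mesenchymal markers moved with siOC2 too, summing to 1075 to 1278 RPKM in PC3 siCtrl hypoxia and to 333.2 to 781.6 in siOC2 hypoxia. The part of the share of dividing cells in the results on the 9 genes was not tested, and in bulk RNA fewer cells that express a gene and less RNA per cell cannot be told apart.

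The genes whose profile was most like the mean of the 9 were also sought, as the Pearson correlation of log2(RPKM + 0.1) with the mean z-score of the 9 over the 8 libraries of a line. Taking the lower of the correlations in PC3 and LNCaP, they were TPX2 (0.93), TACC3 (0.91), SASS6 (0.91), CDCA8 (0.90) and SPC25 (0.90), most of them known for the spindle, the centriole or the kinetochore. CHEK1, a checkpoint kinase, led in LNCaP (0.98), with ALG10, TXNL1 and ZNF285 next, and IRF2BP2 led in PC3 (0.99), followed by SRI, SRGAP2, ARHGEF39 and RBMS1. The 8 libraries share groups and depth, and these correlations carry no test. Among the 9, the correlation of each gene with the mean of the other 8 ran from 0.18 to 0.86 in PC3 for all but BRIP1, which had -0.58, and from 0.22 to 0.77 in LNCaP.

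On the RPKM scale, which allows for gene length, FANCI was the most abundant of the 9 in both lines, with 30.8 to 55.3 in PC3 and 50.9 to 80.2 in LNCaP. In PC3 it was followed by BRCA2 (10.6 to 47.4) and BRIP1 (11.3 to 31.7), whose ranges overlapped each other and the range of FANCI or FANCA. FANCA, BARD1, PALB2, BRCA1, FANCD2 and RAD54L came next, with means from 10.1 down to 4.27 and overlapping ranges between neighbours. In LNCaP FANCI stood clear of BRCA1 (14.9 to 26.1) and FANCD2 (14.8 to 20.5), followed by FANCA, BARD1, PALB2, RAD54L, BRCA2 (3.57 to 9.27) and BRIP1 (1.98 to 3.46), which was the lowest and did not overlap BRCA2. The tables were normalised separately and the RPKM summed to 401332 to 513810 per library in PC3 and to 813232 to 961906 in LNCaP, so levels are not compared between the lines.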

How the data were processed

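RNA-Seq of 16 libraries, 8 per cell line, was used; the ChIP-Seq of the series (12 samples) is not analysed here. The libraries were stranded mRNA libraries. Per the labels the authors' processing notes name STAR 2.4.2a, Cufflinks 2.1.1 and hg19. The deposited values are RPKM per gene symbol, 1 table per line, so depth is known only as relative depth from the smallest steps of low values. From them log2(RPKM + 0.1) was computed, and genes with at least 1 RPKM in 2 libraries were fitted with limma 3.58.1 (trend) in R 4.3.3, 4 groups per line and no block. The deposited tables were tested separately. The genes and the lists were chosen with earlier results of these data known. The fit with the siRNA term and the means over arms or oxygen levels were added after the data were seen. All 9 genes were named in each comparison, and from the other lists called genes with the largest change (up to 5 of the pathway, up to 3 of other lists). The tests were checked on simulated data. In siOC2 the number names the siRNA (library deviations in normoxia and hypoxia correlated at 0.62); elsewhere numbers are only names. Some genes of the lists are not reported here by name.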

Additional observations from a re-analysis of the deposited data

Results flagged for a closer look

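BRCA2 and BRIP1 differed between the siRNAs in PC3, by log2 fold changes of siRNA1 over siRNA2 of 1.31 and 1.36 (limma adjusted p = 0.00305 and 0.00107). The fit with the siRNA term was chosen after these genes were seen to differ. In LNCaP the ONECUT2 effect on BARD1 and on FANCI differed between hypoxia and normoxia by 0.64 and -0.37, with unadjusted p of 0.0202 and 0.0394, and neither passed the limma adjusted p (0.218 and 0.271). At an unadjusted p under 0.05 stood 2 of the 9 genes and 16.9% of all genes.

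In 8 further cases all libraries of a comparison lay on opposite sides in PC3 and LNCaP: 1 of 9 genes for hypoxia in the control arm, 5 for ONECUT2 in normoxia and 2 for ONECUT2 in hypoxia, against 11.9%, 12% and 13.4% of the 10948 genes tested in both lines. The difference between the lines was not tested, since the tables are separate and 1 line lost ONECUT2 while the other gained it. BARD1 with hypoxia had 0.15 in PC3 siCtrl and -0.70 in LNCaP EV. For the ONECUT2 effect in normoxia BRCA1 had 0.39 in PC3 and -0.24 in LNCaP, and BARD1 had 0.20 and -0.36. RAD54L had 0.44 and -0.48, FANCA had 0.47 and -0.25, and FANCI had 0.33 and -0.25. In hypoxia BRCA1 had 1.06 in PC3 and -0.31 in LNCaP, and BRCA2 had 1.07 and -0.33. Groups of 2 libraries allowed no test for outlying libraries.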

How the results depend on the processing

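Counts are of the 9 genes called at the fold limit unless said. For the ONECUT2 effect in PC3 normoxia, 0 as reported, the count was 1 with the replicate block, 1 with the crossed replicate block and 1 with the siRNA term. For PC3 hypoxia, 1 as reported, it was 2 with the replicate block, 2 with the crossed block, 2 with the siRNA term, 2 with only the groups compared, and 0 with a pseudocount of 1, with upper-quartile scaling, with the 3 shallowest libraries left out and with the adjusted p. For the PC3 mean over oxygen levels, 1 as reported, it was 0 with no limit on low values, with the 3 shallowest left out and with the adjusted p. With the adjusted p the LNCaP counts went from 0 to 2 for hypoxia in EV, 1 for hypoxia in OC2, 3 for its mean over arms, 1 for ONECUT2 in hypoxia and 3 for its mean over oxygen levels. Leaving out 1 library gave 0 to 0 in LNCaP and for PC3 hypoxia in siCtrl and over both arms, 0 to 1 for PC3 hypoxia in siOC2, the interaction, ONECUT2 in normoxia and its mean, 0 to 2 for ONECUT2 in hypoxia, 1 to 2 for siRNA1, 1 to 1 for siRNA2 and 2 to 2 between the siRNAs. The crossed pairing was added after the correlation of -0.19 between the siCtrl groups was seen. The cause of these moves was not tested. None of the 17 fold changes of the 9 genes that were called or passed the adjusted p changed sign, whereas of 118 others 46 did under at least 1 alternative, 11 of them with upper-quartile scaling. The 17 were picked for lying far from 0 against their SE, so fewer sign changes among them follow from that choice. Precision is limited by 2 libraries per group and, in PC3, by relative depth down to 0.347; a detection rate at that depth was not measured.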
